A study of Mus musculus with 36 samples.

Results

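The genes described here are 10 genes that mark fibroblasts and fibro-adipogenic progenitors of mouse skeletal muscle: Dcn, Lum, Dpt, Fbln1, Mfap5, Clec3b, Pi16, Cd34, Ly6a and Gsn. They were taken by gene symbol, and all 10 were found among the 52636 genes of the count table and passed the filter on low counts that left 15330 genes for testing. Libraries were made from 3 kinds of cells sorted by FACS from dissociated diaphragm, pectoralis, forelimb and hindlimb muscles: S100β-GFP+;NG2-dsRed+ perisynaptic Schwann cells (PSCs, 9 libraries), S100β-GFP+ cells (8 libraries) and NG2-dsRed+ cells (10 libraries). Every mouse, whichever sort it gave, carried both transgenes, one expressing GFP from the S100b promoter and one expressing dsRed from the promoter of Cspg4, the gene of NG2, so a group is a fluorescence gate and not a genotype, and no treatment is listed. Mice are described as P15 to P21 old, and each replicate as the cells sorted from a single mouse. The series description lists 7 S100β-GFP+ replicates, while the count table holds 8, and which of them it leaves out is not given. The age ranges in the labels all open at P15, but their upper ends run upwards with the library number from 21 to 46, so the age of a single library is uncertain. Libraries were prepared with a kit for ultra-low amounts of RNA, and the total of counts per library was 5334916 to 9592875 in PSCs, 5221655 to 9411399 in S100β-GFP+ cells and 5712256 to 7918320 in NG2-dsRed+ cells. Levels are given as CPM (a library's counts scaled to a total of 1000000, with library sizes adjusted by TMM), and differences as log2 fold changes with their standard errors (SE) from edgeR's quasi-likelihood test over all 15330 genes, called where the Benjamini-Hochberg adjusted p was under 0.05.

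Fibro-adipogenic progenitors are mesenchymal cells that lie between the muscle fibres and around vessels and nerves, secrete much of the matrix of the muscle, help satellite cells after injury and can turn into fibroblasts or adipocytes. They are commonly recognised by Pdgfra, Cd34 and Ly6a (Sca-1), and a subset of fibroblasts found around vessels and in fascia is marked by Pi16 and Dpp4. The small leucine-rich proteoglycans decorin and lumican, encoded by Dcn and Lum, and dermatopontin, encoded by Dpt, bind collagen fibrils, while fibulin-1 and MFAP5 are parts of elastic and microfibrillar matrix.

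The labels of the sorts were first compared with markers of the cells they name. PSCs had 379 to 703 CPM (median 467) of Sox10, a transcription factor of the Schwann lineage. The S100β-GFP+ libraries, which the study calls Schwann cells, had 5.57 to 38.8 CPM (median 16.9) of Sox10 and 9.88 to 40.9 CPM (median 30.5) of S100b itself, against 57.0 to 566 CPM (median 160.4) of S100b in PSCs. No S100β-GFP+ library reached the lowest PSC library in either gene. Of 11 Schwann cell genes listed, Gfap averaged under 1 CPM in each sort and 10 were tested, of which PSCs exceeded the S100β-GFP+ sort in 6 and fell below it in none (1 without PSC library 34), where 22.9% of all genes tested were called higher and 24.1% lower. Their levels summed to 3513 to 4313 CPM in PSCs, 847 to 2843 CPM in S100β-GFP+ cells and 153 to 714 CPM in NG2-dsRed+ cells. With sums of Schwann cell genes below those in PSCs in every library, the group is called by its gate, S100β-GFP+ cells, throughout. Macrophage and leukocyte genes summed to 1267 to 11580.0 CPM in these libraries, against 37.9 to 575 CPM in PSCs and 15.8 to 126 CPM in NG2-dsRed+ cells. Lyz2 had the highest mean CPM of this list in S100β-GFP+ cells. Ptprc, the gene of the leukocyte antigen CD45, had 85.7 to 541 CPM (median 316) in S100β-GFP+ cells. The part that other cells in a sort had in any difference given here was not tested. For every gene in such pools, fewer cells of a type and less RNA per cell cannot be told apart.

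All 10 genes were lower in PSCs than in S100β-GFP+ cells, where 24.1% of all genes tested were called lower in PSCs. The fold differences ran from 10.9 for Fbln1 to 238 for Pi16, with a median log2 fold change of -4.17 against 0.04 over all genes tested. For all 10, every PSC library was below every S100β-GFP+ library, which held for 10.3% of the genes tested. Against NG2-dsRed+ cells 9 of the 10 were lower in PSCs (23.1% of all genes were called lower and 20.9% higher), with a median log2 fold change of -2.67 against 0.02 over all genes, and for 4 of them, Dcn, Mfap5, Cd34 and Ly6a, every PSC library was below every NG2-dsRed+ library (8.83% of all genes). Between the single-positive sorts 9 of the 10 were higher in S100β-GFP+ cells (18.1% of all genes were called higher and 15.2% lower), the median log2 fold change being 2.26 against -0.02 over all genes, and for 8 every S100β-GFP+ library was above every NG2-dsRed+ library (7.21% of all genes). These 3 comparisons share libraries, so their counts are not independent of each other.

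**Figure D1:**
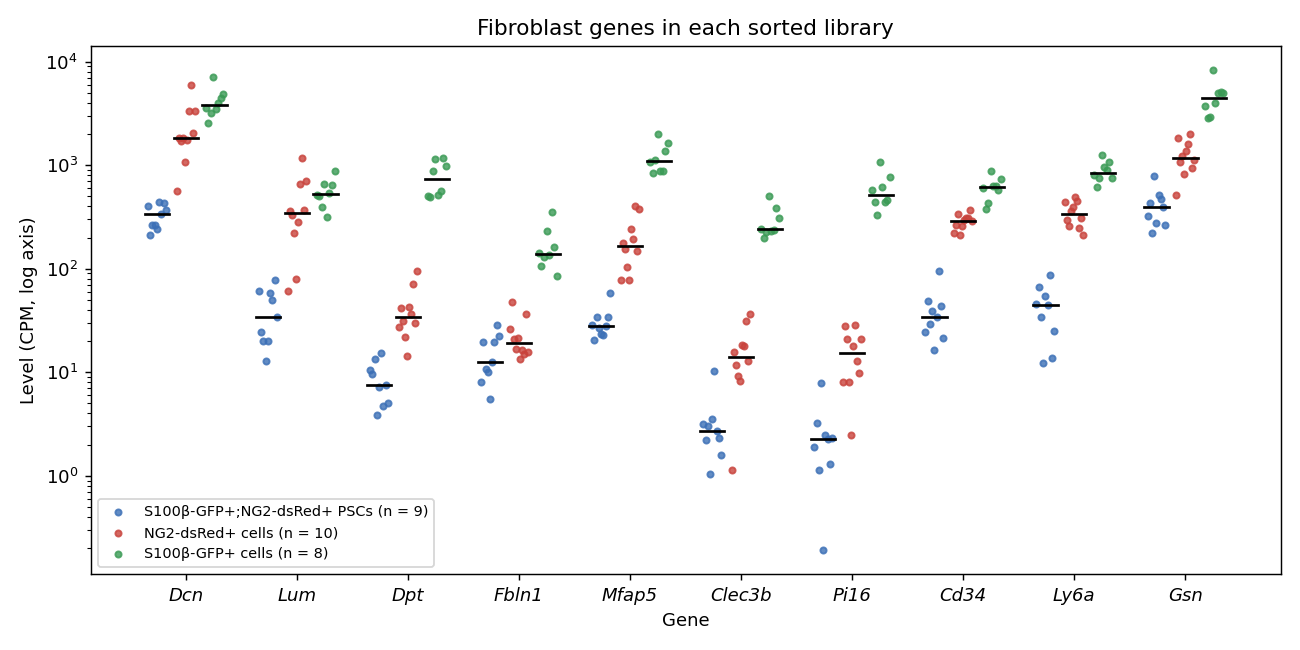
Level of each of the 10 genes (x axis) in each library as CPM (y axis, log scale), with 1 point per library and a black bar at the median of PSCs (n = 9), NG2-dsRed+ cells (n = 10) and S100β-GFP+ cells (n = 8). Each gene has its lowest median in PSCs and its highest in S100β-GFP+ cells, and the points of the single-positive sorts overlap for Dcn and Lum.

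Decorin is the small proteoglycan that coats collagen fibrils in most connective tissues. Dcn (ENSMUSG00000019929, chromosome 10, 97479609 to 97518143, GRCm38) had 209.9 to 438 CPM (median 340.0) in PSCs, 569 to 5958 CPM (median 1826) in NG2-dsRed+ cells and 2560.0 to 7026 CPM (median 3774) in S100β-GFP+ cells. Its log2 fold change was -3.66 (SE 0.34, adjusted p = 2.87e-10) in PSCs against S100β-GFP+ cells and -2.84 (SE 0.32, adjusted p = 1.77e-08) against NG2-dsRed+ cells. The PSC libraries lay apart from all others, while NG2-dsRed+ cells spread more than 10-fold between library 2, the lowest, and library 28, which was above 7 of the 8 S100β-GFP+ libraries. S100β-GFP+ cells were 0.82 (SE 0.30, adjusted p = 0.0345) above NG2-dsRed+ cells on the log2 scale, a call that was lost on leaving out any 1 of 9 libraries. The value was 0.67 (adjusted p = 0.0971) without S100β-GFP+ library 14, 0.80 without 27 and 0.78 without 33. It was 0.79, 0.78, 0.78, 0.74, 0.78 and 0.80 without NG2-dsRed+ libraries 7, 9, 13, 15, 21 and 30 in turn. Fitting the compared sorts without PSCs gave 0.83 (adjusted p = 0.0535). Leaving out S100β-GFP+ libraries 14, 17 and 22 together gave 0.63, and leaving out NG2-dsRed+ libraries 28 and 35, which was chosen after seeing the data, gave 1.26, with the adjusted p between 0.00052 and 0.177 over the 9 other settings tried.

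Lumican is a close relative of decorin that regulates the thickness of collagen fibrils. Lum (ENSMUSG00000036446, chromosome 10, 97565128 to 97572703) lies 46984 bases beyond the end of Dcn on the same strand, followed by the related genes Kera and Epyc. It had 13.0 to 78.3 CPM (median 34.3) in PSCs, 60.7 to 1179.8 CPM (median 345) in NG2-dsRed+ cells and 315 to 882 CPM (median 525) in S100β-GFP+ cells. The log2 fold change was -3.80 (SE 0.46, adjusted p = 6.69e-08) in PSCs against S100β-GFP+ cells and -3.41 (SE 0.45, adjusted p = 2.91e-07) against NG2-dsRed+ cells. NG2-dsRed+ library 2 was at 60.7 CPM, below PSC libraries 4 and 34, while all other PSC libraries lay below every NG2-dsRed+ library, and NG2-dsRed+ library 28 was above every S100β-GFP+ library. Lum was the 1 gene of the 10 not called between the single-positive sorts, with a log2 fold change of 0.39 (SE 0.41, adjusted p = 0.515) and a 95% interval of -0.45 to 1.23. It was 0.74 (adjusted p = 0.154) without NG2-dsRed+ library 28, 0.95 (adjusted p = 0.0631) without libraries 28 and 35 and 0.80 (adjusted p = 0.11) by limma-voom with sample quality weights, and was not called under any of the 9 other settings or with any 1 library left out. Its neighbour Kera, encoding keratocan, had 7.32 to 74.2 CPM (median 21.6) in S100β-GFP+ cells and at most 2.79 CPM in NG2-dsRed+ cells, and differed between them by 4.60 (SE 0.68, adjusted p = 2.95e-06) on the log2 scale. So, of these neighbouring genes, Kera was called between the single-positive sorts while Lum was not, and whether their differences differ from each other was not tested.

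Dermatopontin is a small matrix protein that binds decorin and speeds the assembly of collagen fibrils. Dpt (ENSMUSG00000026574, chromosome 1, 164796644 to 164824266) had 3.85 to 15.3 CPM (median 7.52) in PSCs, 14.2 to 94.8 CPM (median 33.8) in NG2-dsRed+ cells and 491 to 1167 CPM (median 727) in S100β-GFP+ cells. Its lowest S100β-GFP+ library was above the highest NG2-dsRed+ library, number 35, by more than 5-fold, and 8 of the 9 PSC libraries were below every NG2-dsRed+ library. The log2 fold change was 4.25 (SE 0.34, adjusted p = 4.45e-11) between S100β-GFP+ and NG2-dsRed+ cells, -6.50 (SE 0.39, adjusted p = 8.23e-14) in PSCs against S100β-GFP+ cells and -2.25 (SE 0.32, adjusted p = 1.11e-06) against NG2-dsRed+ cells.

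Fibulin-1 is a glycoprotein of basement membranes and elastic fibres. Fbln1 (ENSMUSG00000006369, chromosome 15, 85205949 to 85286535) had 5.55 to 28.7 CPM (median 12.7) in PSCs, 13.4 to 48.0 CPM (median 19.0) in NG2-dsRed+ cells and 84.6 to 349 CPM (median 138) in S100β-GFP+ cells. PSC and NG2-dsRed+ libraries overlapped, with 5 PSC libraries below the lowest NG2-dsRed+ library and PSC library 34 above 8 of the 10, and all S100β-GFP+ libraries lay above both. It was the 1 gene not called between PSCs and NG2-dsRed+ cells, at -0.60 (SE 0.30, adjusted p = 0.107) with a 95% interval of -1.21 to 0.01, although limma-voom with sample quality weights called it (-0.87, adjusted p = 0.021, within a range of 0.021 to 0.461 over the 9 other settings). A term for the part of a library's counts taken by Lars2, Gm23935 and Gm15564 brought this value to -0.30 (adjusted p = 0.461). Against S100β-GFP+ cells the log2 fold change in PSCs was -3.45 (SE 0.33, adjusted p = 7.78e-10), and S100β-GFP+ cells were 2.85 (SE 0.31, adjusted p = 1.99e-08) above NG2-dsRed+ cells on that scale. Within NG2-dsRed+ cells its order differed from that of the proteoglycans: library 28, the highest for Dcn and Lum, had 15.1 CPM of Fbln1, and library 7 had the highest level at 48.0 CPM.

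MFAP5 is a glycoprotein of fibrillin microfibrils. Mfap5 (ENSMUSG00000030116, chromosome 6, 122505845 to 122529290) had 20.4 to 58.3 CPM (median 27.7) in PSCs, 78.2 to 399 CPM (median 165) in NG2-dsRed+ cells and 832 to 1979 CPM (median 1100.5) in S100β-GFP+ cells. The sorts did not overlap in any of the comparisons, with PSCs lowest and S100β-GFP+ cells highest. Its log2 fold change was -5.31 (SE 0.34, adjusted p = 3.2e-13) in PSCs against S100β-GFP+ cells, -2.66 (SE 0.30, adjusted p = 1.92e-08) in PSCs against NG2-dsRed+ cells and 2.65 (SE 0.29, adjusted p = 2.41e-08) in S100β-GFP+ against NG2-dsRed+ cells. PSC library 36 was at 58.3 CPM, and the next highest PSC library, 34, at 34.2 CPM.

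Clec3b encodes tetranectin, a secreted protein with a lectin-like domain that binds plasminogen. Clec3b (ENSMUSG00000025784, chromosome 9, 123150946 to 123157432) had 1.05 to 10.2 CPM (median 2.72) in PSCs, 1.13 to 36.4 CPM (median 14.2) in NG2-dsRed+ cells and 199 to 499 CPM (median 239.9) in S100β-GFP+ cells. At the low end these levels rest on few counts, 6 to 65 per PSC library and 8 in NG2-dsRed+ library 2. S100β-GFP+ libraries stood above all others, and NG2-dsRed+ library 2 was as low as the lowest PSC libraries. The log2 fold change was 4.16 (SE 0.41, adjusted p = 3.31e-09) between the single-positive sorts, -6.46 (SE 0.49, adjusted p = 5.72e-12) in PSCs against S100β-GFP+ cells and -2.31 (SE 0.41, adjusted p = 3.17e-05) against NG2-dsRed+ cells.

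Pi16, peptidase inhibitor 16, is a membrane-anchored protein of the CAP family and the marker of a fibroblast subset found in many tissues. Pi16 (ENSMUSG00000024011, chromosome 17, 29317680 to 29330593) had 0.191 to 7.88 CPM (median 2.29) in PSCs, 2.45 to 28.5 CPM (median 15.3) in NG2-dsRed+ cells and 333 to 1077 CPM (median 515) in S100β-GFP+ cells. Its PSC libraries held 2 to 45 counts each, 178 in all, against 2408 to 6105 counts in each S100β-GFP+ library. Of the 10 genes Pi16 had the largest fitted differences from S100β-GFP+ cells, -7.89 (SE 0.53, adjusted p = 6.89e-13) in PSCs, and S100β-GFP+ cells were 5.22 (SE 0.45, adjusted p = 1.72e-10) above NG2-dsRed+ cells on the log2 scale. PSCs were also below NG2-dsRed+ cells by a log2 fold change of -2.68 (SE 0.43, adjusted p = 7.62e-06), with 6 of 9 PSC libraries below every NG2-dsRed+ library. PSC library 18, at 7.88 CPM, was the highest PSC library for Pi16 and for Gsn and the lowest for Lum, Dpt, Clec3b and Ly6a.

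Cd34 encodes a sialomucin on the surface of blood progenitors, endothelial cells and fibro-adipogenic progenitors, so it is no marker of a single cell type. Cd34 (ENSMUSG00000016494, chromosome 1, 194938819 to 194961279) had 16.4 to 94.3 CPM (median 34.0) in PSCs, 213 to 369 CPM (median 292) in NG2-dsRed+ cells and 379 to 871 CPM (median 619) in S100β-GFP+ cells. None of the sorts overlapped, and NG2-dsRed+ libraries differed less than 2-fold between their extremes, where Dcn differed more than 10-fold. The log2 fold changes were -3.96 (SE 0.27, adjusted p = 7.12e-13) in PSCs against S100β-GFP+ cells, -2.88 (SE 0.25, adjusted p = 1.17e-10) against NG2-dsRed+ cells and 1.08 (SE 0.24, adjusted p = 0.000564) between the single-positive sorts. PSC library 31 was the highest PSC library for Cd34 at 94.3 CPM, and also for Ly6a and for the endothelial gene Pecam1 (128 CPM, against 33.9 as the median of PSCs).

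Ly6a, the gene of Sca-1, encodes a GPI-anchored surface protein of mesenchymal and blood progenitors and of endothelium. Ly6a (ENSMUSG00000075602, chromosome 15, 74994877 to 74998031) had 12.3 to 87.5 CPM (median 45.1) in PSCs, 209 to 495 CPM (median 335) in NG2-dsRed+ cells and 617 to 1265 CPM (median 848) in S100β-GFP+ cells. Again no sorts overlapped, with log2 fold changes of -4.38 (SE 0.32, adjusted p = 3.24e-12) in PSCs against S100β-GFP+ cells, -3.02 (SE 0.29, adjusted p = 1.26e-09) against NG2-dsRed+ cells and 1.36 (SE 0.28, adjusted p = 0.000269) between the single-positive sorts. Within NG2-dsRed+ cells, libraries 35 and 28, among the 3 highest in Dcn, had the lowest levels of Ly6a, 209 and 247 CPM, while library 26, the other of these 3, had 455 CPM, the level next to the highest. Ly6a belongs to a family of similar genes clustered on chromosome 15, and reads shared with a relative can be lost or misplaced, so its level is uncertain.

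Gelsolin cuts and caps actin filaments and also has a secreted form, and its gene is active in many cell types besides fibroblasts. Gsn (ENSMUSG00000026879, chromosome 2, 35256380 to 35307892) had 219 to 793 CPM (median 398) in PSCs, 514 to 2011 CPM (median 1169.9) in NG2-dsRed+ cells and 2819.9 to 8296 CPM (median 4482) in S100β-GFP+ cells. The single-positive sorts did not overlap, while 2 of the 9 PSC libraries reached the range of NG2-dsRed+ cells. Log2 fold changes were -3.49 (SE 0.29, adjusted p = 4.61e-11) in PSCs against S100β-GFP+ cells, -1.61 (SE 0.26, adjusted p = 1.03e-05) against NG2-dsRed+ cells and 1.87 (SE 0.27, adjusted p = 1.75e-06) between the single-positive sorts. In GENCODE M21, Pi16 and Cd34 share 222 and 148 bases of exon sequence with a gene on the opposite strand, AC162182.1 and Gm16897, and since it is not stated whether strand was used in counting, reads there can be lost or misplaced.

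Levels can be compared between genes only per length, here as CPM per kilobase of exon sequence, given as mean ± SD. Gsn led in PSCs with 129.8 ± 55.6 CPM per kilobase (n = 9), followed by Dcn with 56.2 ± 14.8 and Ly6a with 35.4 ± 20.5, and Pi16 was last with 0.397 ± 0.345. From Dcn down to Pi16, the spans of mean ± SD of neighbours in the order overlapped in PSCs, while Gsn lay above that of Dcn. S100β-GFP+ cells also had Gsn first, with 1457 ± 553 CPM per kilobase (n = 8), and Fbln1 last, with 38.3 ± 19.5. Ly6a, Dcn, Dpt, Mfap5, Clec3b and Lum followed Gsn in S100β-GFP+ cells with overlapping spans, then came Pi16 and Cd34, whose spans overlapped each other and lay below that of Lum, and that of Pi16 reached the span of Fbln1 while that of Cd34 did not. Among NG2-dsRed+ cells Dcn with 402 ± 263 and Gsn with 397 ± 147 CPM per kilobase (n = 10) came first and Pi16 with 2.48 ± 1.40 last, and the spans of all neighbours in the order overlapped.

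The ratio of a gene's counts to those of Lum in the same library does not depend on the size of the library, and was looked at because Lum differed least between the single-positive sorts, a choice made after its values were seen. Pi16 had 0.713 to 1.94 counts per count of Lum in S100β-GFP+ libraries and 0.0108 to 0.133 in NG2-dsRed+ libraries. Per count of Lum, Dpt had 0.975 to 2.26 and 0.0550 to 0.451 counts, Clec3b 0.352 to 0.753 and 0.0187 to 0.103, and Mfap5 1.65 to 2.98 and 0.294 to 1.29, in the same order of sorts. These ratios did not overlap between the single-positive sorts. Because Lum differed little there, they largely repeat the differences in level given above and are no separate result. For how many of all genes tested such ratios would not overlap was not counted. Dcn gave overlapping ratios, 5.08 to 11.0 in S100β-GFP+ and 4.77 to 13.3 in NG2-dsRed+ libraries, as did Cd34 (0.751 to 2.01 and 0.263 to 3.68) and Ly6a (0.854 to 3.05 and 0.210 to 7.26). In PSCs the ratio to Lum was 0.0957 to 0.670 for Dpt, 0.0298 to 0.177 for Clec3b and 0.00957 to 0.608 for Pi16, below all S100β-GFP+ libraries. It was 0.399 to 2.05 for Mfap5 and 5.53 to 20.2 for Dcn, and both overlapped the S100β-GFP+ libraries. Fbln1 and Gsn also had overlapping ratios between the single-positive sorts, and no test of the ratios was made.

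Of 30 other genes of fibroblasts and fibro-adipogenic progenitors listed, 29 passed the filter; Tcf21 did not, with at most 4 counts in a library. Compared with S100β-GFP+ cells, PSCs were lower in 23 of the 29 and higher in 2, Apod and Tcf7l2, and the median log2 fold change was -3.13. Over all genes tested, 24.1% were called lower and 22.9% higher there. Mmp2, among these 23 (-0.66, adjusted p = 0.0346), was not called without S100β-GFP+ library 14 (-0.49, adjusted p = 0.118) or 1. It was also not called without any 1 of PSC libraries 4, 12, 18, 20 and 36. Against NG2-dsRed+ cells 23 of the 29 were lower and 2, Mmp2 and Sema3c, higher in PSCs, with a median of -2.45 (23.1% of all genes were called lower and 20.9% higher). Between the single-positive sorts the list was divided, with 18 higher in S100β-GFP+ cells, 6 lower and 5 not called, and a median of 1.34 (18.1% of all genes were called higher and 15.2% lower). Among the 18, Pcolce, Thy1 and Igfbp6 were not called without S100β-GFP+ library 14 (0.66, 0.78 and 0.67). Pcolce was also not called without any 1 of S100β-GFP+ libraries 27 and 33 and NG2-dsRed+ libraries 2, 13, 15, 21, 26 and 30. The same held for Thy1 without S100β-GFP+ library 27 or 33 or NG2-dsRed+ library 13 or 26. Dpp4, a surface peptidase that marks the same fibroblast subset as Pi16, had 92.1 to 269.8 CPM (median 145) in S100β-GFP+ cells, 3.55 to 17.5 CPM (median 8.38) in NG2-dsRed+ cells and 0.0788 to 1.72 CPM (median 0.626) in PSCs, a log2 fold change of 4.20 (SE 0.34, adjusted p = 5.62e-11) between the single-positive sorts. Cd55, encoding a complement regulator, had 3.85 (SE 0.35, adjusted p = 5.89e-10) in the same comparison, and Sema3c, encoding a secreted semaphorin, 3.86 (SE 0.33, adjusted p = 2.34e-10). For Dpp4, Cd55 and Sema3c alike every S100β-GFP+ library was above every NG2-dsRed+ library. Sema3c differed from the 10 genes in its order, since PSCs, at 37.0 to 96.9 CPM (median 76.5), were above NG2-dsRed+ cells, at 5.67 to 58.7 CPM (median 15.6).

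Other fibroblast genes went the opposite way between the single-positive sorts. Smoc2, encoding a secreted calcium-binding matrix protein, had 79.4 to 939 CPM (median 309) in NG2-dsRed+ cells and 38.4 to 139 CPM (median 58.9) in S100β-GFP+ cells, a log2 fold change of -2.50 (SE 0.39, adjusted p = 8.16e-06) in S100β-GFP+ against NG2-dsRed+ cells. Col15a1, encoding a collagen near basement membranes, had 382 to 1193 CPM (median 689) and 87.4 to 270.2 CPM (median 127), a log2 fold change of -2.25 (SE 0.29, adjusted p = 3e-07). Neither was called between PSCs and S100β-GFP+ cells (adjusted p = 0.436 for Smoc2 and 0.583 for Col15a1). The transcription factor gene Hic1, used to mark muscle mesenchymal progenitors, was also lower in S100β-GFP+ than in NG2-dsRed+ cells (-1.21, SE 0.32, adjusted p = 0.0039), and so were Gli1 (-1.27), Mgp (-1.44) and Apod (-3.35). Without NG2-dsRed+ library 28, Gli1 (-0.95, adjusted p = 0.0571) and Mgp (-1.25, adjusted p = 0.0558) were not called, and neither was Mgp without library 35 (-1.01, adjusted p = 0.0934). Pdgfra, the receptor gene by which fibro-adipogenic progenitors are most often sorted, overlapped between the single-positive sorts as Dcn and Lum did, with 16.2 to 246 CPM (median 84.8) in NG2-dsRed+ cells, 93.7 to 258 CPM (median 159) in S100β-GFP+ cells and 5.08 to 24.4 CPM (median 10.1) in PSCs. The difference between the single-positive sorts in Pdgfra was not called (0.74, SE 0.37, adjusted p = 0.124, 95% interval -0.0048 to 1.49), but was without NG2-dsRed+ library 28 (0.97, adjusted p = 0.0416) or 35 (1.02, adjusted p = 0.0278).

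**Figure D2:**
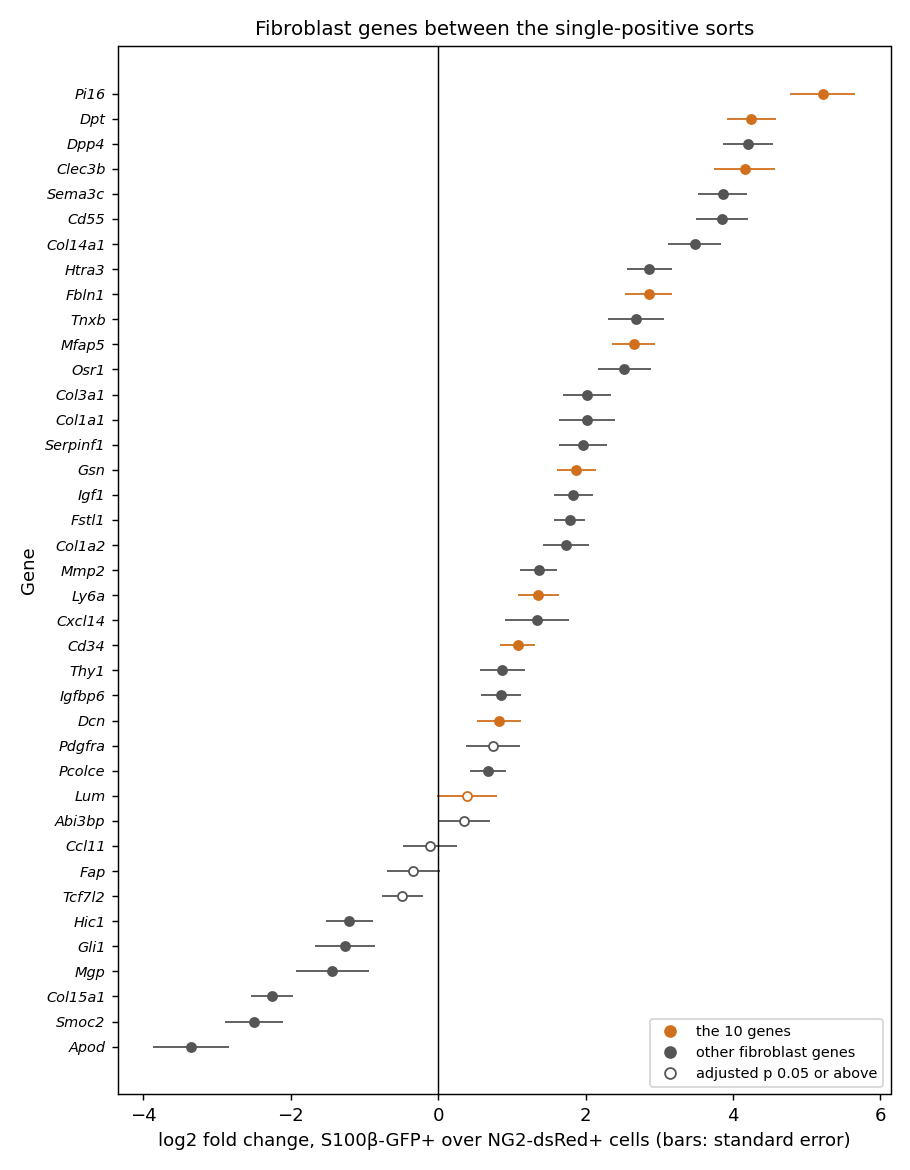
Log2 fold change between S100β-GFP+ (n = 8) and NG2-dsRed+ cells (n = 10) on the x axis for the 10 genes (orange) and 29 other fibroblast genes (grey) on the y axis, with bars for the standard error and open points where the adjusted p was 0.05 or above. Pi16, Dpt, Dpp4 and Clec3b are at the top with values over 4, Lum at 0.39 and Pdgfra at 0.74 are open points, and Smoc2 and Apod are at the bottom.

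Relatives of the 10 genes by family were counted in the same fit. Of 14 small leucine-rich proteoglycans besides Dcn and Lum, 10 were tested; PSCs were lower than S100β-GFP+ cells in 8, and 5 were lower in PSCs and 1 higher than in NG2-dsRed+ cells, with medians of -3.22 and -1.47, while S100β-GFP+ cells were higher than NG2-dsRed+ cells in 5 and lower in 1. The 1 higher, Chad, was at -1.45 (adjusted p = 0.164) without PSC library 31, against 2.88 (SE 1.12, adjusted p = 0.0378) with it, and was also not called without any 1 of NG2-dsRed+ libraries 2, 7, 9, 15, 21, 26 and 30 (2.72 to 2.87). Bgn, the gene of biglycan and the closest relative of Dcn, was not called in any comparison of all libraries (lowest adjusted p = 0.0547, PSCs against NG2-dsRed+ cells), and had 372 to 2301 CPM (median 643) in PSCs, 318 to 1165 CPM (median 854) in S100β-GFP+ cells and 212 to 746 CPM (median 452) in NG2-dsRed+ cells. Bgn was called between PSCs and NG2-dsRed+ cells without any 1 of NG2-dsRed+ libraries 7, 28 and 35 and PSC libraries 4, 12, 20, 34 and 36 (0.78 to 0.84), and between the single-positive sorts without NG2-dsRed+ library 35 (0.79) or S100β-GFP+ library 3 (0.81). Aspn, the gene of asporin, had 384 to 596 CPM (median 513) in NG2-dsRed+ cells, 207 to 619 CPM (median 377) in S100β-GFP+ cells and 5.93 to 32.4 CPM (median 13.1) in PSCs, where every library was below all others. Among 15 fibulin and microfibril genes besides Fbln1 and Mfap5, PSCs were lower than S100β-GFP+ cells in 9 and lower than NG2-dsRed+ cells in 11, with none called higher in PSCs, and 8 were higher and 2 lower in S100β-GFP+ than in NG2-dsRed+ cells (7 and 1 without NG2-dsRed+ library 13). Among these 11, Fbln2 (-0.49, adjusted p = 0.0318) and Mfap3 (-0.43, adjusted p = 0.0322) were not called without any 1 of PSC libraries 4, 12, 18, 20, 34 and 36. Neither was called without NG2-dsRed+ library 28 or 35, nor Mfap3 without 2, 9 or 13. Fbln5, among the 8 (0.74, adjusted p = 0.0402), was not called without any 1 of S100β-GFP+ libraries 14, 22, 27 and 33 and NG2-dsRed+ libraries 9, 13 and 21. Efemp1, the gene of fibulin-3, had the largest log2 fold change of the 15 between the single-positive sorts, 4.36 (SE 0.36, adjusted p = 8.1e-11), with 333 to 848 CPM (median 483) in S100β-GFP+ cells, 8.97 to 73.0 CPM (median 19.9) in NG2-dsRed+ cells and 1.15 to 5.24 CPM (median 3.43) in PSCs. Fbn1, the gene of fibrillin-1, had the highest mean CPM of the list in both single-positive sorts, where CPM is not adjusted for gene length. It had 1258 to 4283 CPM (median 2335) in S100β-GFP+ and 181 to 684 CPM (median 450.1) in NG2-dsRed+ cells.

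The surface and actin genes had relatives with other patterns, to be read beside the same shares over all genes. Of 10 Ly6 genes besides Ly6a 3 were tested, Ly6c1, Ly6c2 and Ly6e, and all 3 were lower in PSCs than in either other sort, while without the filter on low counts PSCs were lower than S100β-GFP+ cells in 6 of the 10 and higher in 1, and lower than NG2-dsRed+ cells in 4 and higher in 1. Over all 44705 genes of that unfiltered fit, PSCs were lower than S100β-GFP+ cells in 12649 and higher in 3907. Against NG2-dsRed+ cells they were lower in 4350 and higher in 3751. With a filter at mean count 5, 4 of the Ly6 genes were lower and 1 higher in PSCs in each of these comparisons, and without any 1 of S100β-GFP+ libraries 11, 14, 17, 22 and 33, where 4 were tested, PSCs were lower than S100β-GFP+ cells in 3 and higher in 1. Unlike Ly6a, none of them was higher in S100β-GFP+ than in NG2-dsRed+ cells: Ly6e was lower (-1.16, SE 0.27, adjusted p = 0.00102), and Ly6c1 (-0.50, adjusted p = 0.209) and Ly6c2 (0.22, adjusted p = 0.791) were not called, with 2 of the family lower by limma-voom, without the filter or without S100β-GFP+ libraries 14, 17 and 22. Podxl, which encodes podocalyxin, a relative of CD34, had 121 to 470.1 CPM (median 353) in NG2-dsRed+ cells and 5.23 to 243 CPM (median 13.7) in S100β-GFP+ cells, a log2 fold change of -2.31 (SE 0.60, adjusted p = 0.00309), opposite in sign to that of Cd34; Podxl2, the other relative, was not called there. PSCs were lower than NG2-dsRed+ cells in Podxl (-3.06) and higher in Podxl2 (1.15). Of 7 relatives of Gsn 5 were tested, of which PSCs were lower than S100β-GFP+ cells in 4, and 2, Capg and Svil, were higher in S100β-GFP+ than in NG2-dsRed+ cells. PSCs were lower than NG2-dsRed+ cells in Flii and Svil and higher in Capg (0.82, SE 0.25, adjusted p = 0.00801), opposite in sign to Gsn. Capg, an actin-capping gene, had 114 to 439 CPM (median 316) in S100β-GFP+ cells and 34.2 to 67.1 CPM (median 44.0) in NG2-dsRed+ cells. Of 10 adipogenic genes 8 were tested, PSCs being lower than S100β-GFP+ cells in 7 and lower than NG2-dsRed+ cells in 6. Adipoq was called higher in PSCs than in NG2-dsRed+ cells only without NG2-dsRed+ library 9 (3.33, adjusted p = 0.0325, against 2.11 with it). It averaged under 1 CPM in each of these sorts and failed the filter without PSC library 34, so that call cannot show a difference. Between the single-positive sorts 4, Adipoq, Cebpa, Lpl and Plin1, were higher and 1, Fabp4, lower in S100β-GFP+ cells (2 lower without S100β-GFP+ library 22). Of these, Adipoq and Plin1 averaged under 1 CPM among NG2-dsRed+ libraries.

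The 10 genes differed in how far single libraries stood apart. Within NG2-dsRed+ cells their summed level ran from 1948 CPM in library 2 to 10235 CPM in library 28, with library 26 at 6689.9 and library 35 at 6189 CPM. The pericyte and smooth muscle list, led by Rgs5, summed to 8093 and 7405 CPM in libraries 28 and 35 and to 9937 to 15914 CPM in the others. Endothelial genes, led by Cdh5, summed to 1968 and 2463 CPM in these same libraries, and to 3265 CPM or more in the others. Libraries 28 and 35 were thus the lowest of the 10 for both lists, and among the 3 highest for Dcn and Lum and the 2 highest for Pdgfra, Mfap5, Dpt, Clec3b and Smoc2. The rest of the 10 genes did not follow this, since these libraries were the 2 lowest for Ly6a and among the 3 lowest for Fbln1, and lay between the 2 highest and the 2 lowest for Pi16 and Cd34, while for Gsn library 28 was the highest and library 35 was not among the 3 highest. Libraries 28 and 35 also had the lowest shares of counts on Lars2, Gm23935 and Gm15564 in this sort, 12.5% and 19.3%, against 22.6% to 40.0% in the other 8. This share was 3.64% to 36.6% in PSCs and 19.5% to 39.1% in S100β-GFP+ cells, and with it as a term all 30 log2 fold changes of the 10 genes kept their side of the threshold. Without libraries 28 and 35, a choice made after seeing the data, 9 of the 10 genes, all but Fbln1, were still lower in PSCs than in NG2-dsRed+ cells and 9, all but Lum, still higher in S100β-GFP+ than in NG2-dsRed+ cells.

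S100β-GFP+ library 14 had the highest level of 7 of the 10 genes, Dcn, Mfap5, Clec3b, Pi16, Cd34, Ly6a and Gsn, and library 3 the lowest level of 7. Summed, the 10 genes had 23052 CPM in library 14, 8948 CPM in library 3 and between these in the others. Macrophage and leukocyte genes had 11580.0 CPM in library 3, their highest, and 3936 CPM in library 14. Libraries 14, 17 and 22 held the most endothelial RNA of this sort, with 1106, 3587 and 1927 CPM over 12 endothelial genes against at most 255 CPM in the others, and the least macrophage RNA. Erythroid genes, led by Hbb-bs, ranged from 24.9 CPM in library 33 to 131313 CPM in library 17. Without libraries 14, 17 and 22 all 10 genes were still lower in PSCs, with log2 fold changes from -2.97 for Fbln1 to -7.67 for Pi16, and 8 of the 10, all but Dcn and Lum, were higher than in NG2-dsRed+ cells.

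**Figure D3:**
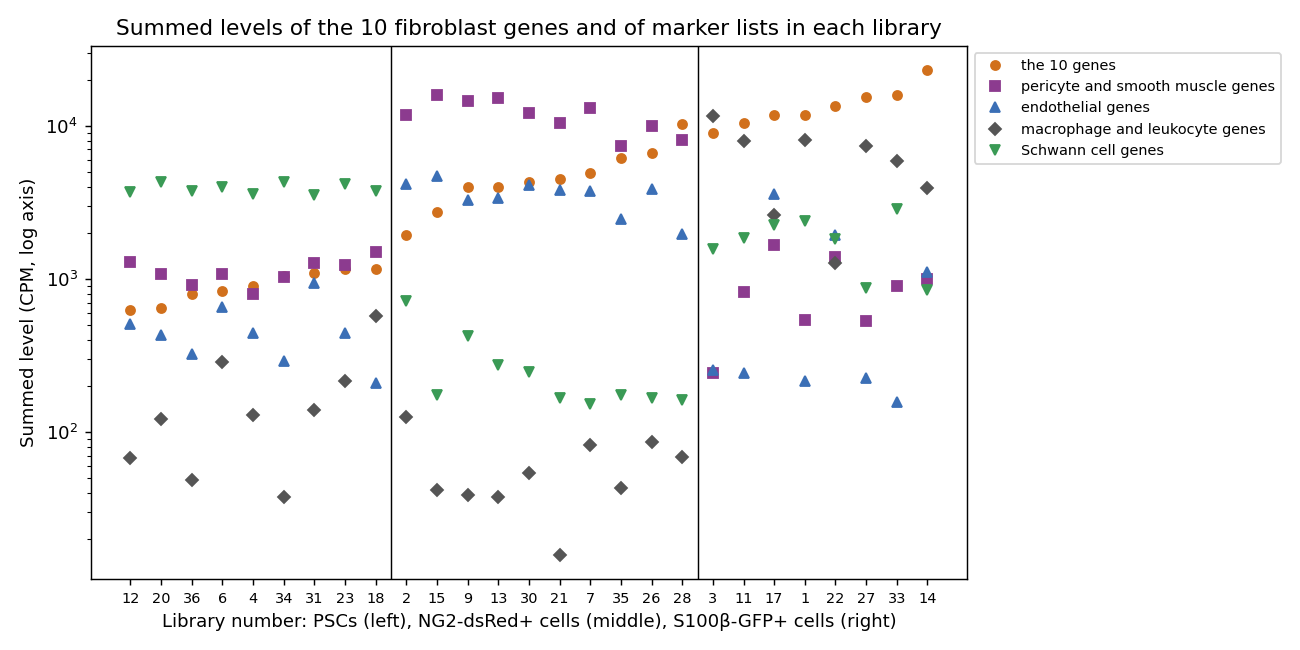
Summed level (y axis, CPM, log scale) of the 10 genes and of 4 marker lists in each library (x axis, ordered within each sort by the 10 genes; 9 PSC, 10 NG2-dsRed+ and 8 S100β-GFP+ libraries). The 10 genes sum to 629 to 1169 CPM in PSCs, and NG2-dsRed+ libraries 28 and 35 combine high sums of the 10 genes with the lowest sums of the pericyte and endothelial lists.

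Marker lists of other cells moved with the same comparisons, and their part in the differences of the 10 genes was not tested. Between PSCs and S100β-GFP+ cells 9 of 10 macrophage and leukocyte genes tested and 6 of 6 erythroid genes were lower in PSCs, 2 of 12 endothelial genes were lower, and of 11 pericyte and smooth muscle genes 5 were lower and 1, Cspg4, was higher. Leaving out S100β-GFP+ libraries 14, 17 and 22 took the erythroid genes from 6 to 0 by edgeR, with 0 at an unadjusted p under 0.05, and gave 11 endothelial genes, 10 higher and 1 lower in PSCs, while 4 endothelial genes were lower without PSC library 31 or without S100β-GFP+ library 27 and 1 with a term for the counts of Lars2, Gm23935 and Gm15564. With all libraries kept, limma-voom with sample quality weights called 0 erythroid genes in either comparison with S100β-GFP+ cells, with 0 at an unadjusted p under 0.05. Relative to NG2-dsRed+ cells, PSCs were lower in 10 of 11 pericyte and smooth muscle genes and 11 of 12 endothelial genes, with sums of 796 to 1495 CPM against 7405 to 15914 CPM and 210.1 to 939 CPM against 1968 to 4692 CPM. Macrophage and leukocyte genes summed to at most 126 CPM in NG2-dsRed+ cells, with Adgre1 and Cd3e under 1 CPM on average, and to at most 575 CPM in PSCs, with 7 of the 12 genes under 1 CPM. Of 10 such genes tested between these sorts, 5, C1qa, C1qb, C1qc, Csf1r and S100a8, were lower in PSCs and 1, Lyz2, was higher by edgeR. Csf1r (-0.98, adjusted p = 0.0438) was not called without any 1 of NG2-dsRed+ libraries 7, 13, 15, 26, 28 and 35 and PSC libraries 4, 6, 12, 23, 31, 34 and 36 (-0.79 to -1.01). C1qc (-1.53, adjusted p = 0.0266) was not called without any 1 of NG2-dsRed+ libraries 28 and 35 and PSC libraries 4, 20, 34 and 36 (-1.13 to -1.41). The 5 called lower became 3 without any 1 of NG2-dsRed+ libraries 7, 15 and 26 and PSC libraries 12, 31 and 34. They became 2 without NG2-dsRed+ library 28 or 35, both of these or PSC library 4, and 1 by limma-voom. S100a8 failed the filter without any 1 of NG2-dsRed+ libraries 2, 7, 15, 26, 28 and 35 and PSC libraries 31 and 36. With only the compared sorts in the fit the 1 gene called was higher in PSCs, with 3 at an unadjusted p under 0.05. Between the single-positive sorts 11 of 11 pericyte and smooth muscle genes and 9 of 12 endothelial genes were lower in S100β-GFP+ cells, while of 10 macrophage and leukocyte genes 9 were higher and 1, S100a8, lower, a gene that did not pass the filter on low counts, and so was not tested, without any 1 of NG2-dsRed+ libraries 2, 7, 15, 26, 28 and 35. Of the endothelial genes there, Vwf (-1.40, adjusted p = 0.0408) was not called without any 1 of NG2-dsRed+ libraries 2, 7, 9, 15, 21, 26 and 30. The same held for S100β-GFP+ libraries 1, 3, 11, 27 and 33. Tie1 was also called lower without S100β-GFP+ library 17 or 22, and Plvap without 17. Between these sorts 5 of 6 erythroid genes were higher by edgeR, a count of 1 without S100β-GFP+ library 17 and of 0 without libraries 14, 17 and 22, with 0 at an unadjusted p under 0.05. Perineurial and endoneurial mesenchyme genes, of which 10 were tested, were lower for 5 and higher for 3 when PSCs were compared with S100β-GFP+ cells, and lower for 8 and higher for 1 when compared with NG2-dsRed+ cells. Between the single-positive sorts 6 of these 10 were called, each lower in S100β-GFP+ cells (median of the 10 -1.45 on the log2 scale), and 1 was higher without any 1 of NG2-dsRed+ libraries 26 and 28 and S100β-GFP+ libraries 17 and 22. Of 8 tendon and cartilage genes tested, PSCs were lower than S100β-GFP+ cells in 4 and higher in 2, Acan and Col2a1, but in these 2 PSC library 31 alone was above every S100β-GFP+ library, with 285 CPM of Acan and 3859 CPM of Col2a1 against PSC medians of 0.175 and 1.97. Without library 31, 7 of the 8 were lower in PSCs, Col2a1 among them, which turned from 4.79 (adjusted p = 0.0092) to -1.97 (adjusted p = 0.0193), and Acan was not called (-1.05, adjusted p = 0.306). Against NG2-dsRed+ cells 4 of the 8, Acan, Chad, Col2a1 and Comp, were higher in PSCs and 1, Thbs4, lower by edgeR (6 and 2 without the filter on low counts or with one at mean count 5, 3 and 2 without NG2-dsRed+ library 15, 4 and 2 without PSC library 34), while the 4 called without PSC library 31 and the 3 called by limma-voom were all lower. From S100β-GFP+ to NG2-dsRed+ cells 5 of the 8 were called, Chad, Comp, Fmod, Scx and Tnmd, each higher in S100β-GFP+ cells, but Comp (2.87, adjusted p = 0.036) was not called without any 1 of NG2-dsRed+ libraries 9, 15, 21, 30 and 35 and S100β-GFP+ libraries 1 and 14 (adjusted p = 0.0517 to 0.085). The 11 genes of this list summed to 4913 CPM in library 31 and to 5.78 to 118 CPM in the other 8 PSC libraries. Without adjustment for gene length, the highest mean CPM of the list was that of Fmod in S100β-GFP+ cells and of Thbs4 in NG2-dsRed+ cells. Of 7 muscle fibre genes edgeR called 1 between PSCs and S100β-GFP+ cells, Myh4, higher in PSCs, while 8 of the 9 other settings called 2 to 4, all higher (2 by DESeq2, 2 by limma-voom, 4 without libraries 14, 17 and 22), as did fits without PSC library 34 (3) and without PSC library 23 or 31 or S100β-GFP+ library 17 or 22 (2). EdgeR called 0 of 7 satellite cell and myoblast genes there, with 0 at an unadjusted p under 0.05, and DESeq2 0, but 4 were higher in PSCs by limma-voom, 6 without libraries 14, 17 and 22, 2 without library 17, 1 without library 22 and 1 with the term for the counts of Lars2, Gm23935 and Gm15564. Des alone of these 7 was lower in PSCs than in NG2-dsRed+ cells, and in S100β-GFP+ than in NG2-dsRed+ cells, where 5 were lower by limma-voom, 4 without libraries 14, 17 and 22 and 2 without library 17 or 22.

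For each of the 10 genes, the 3 tested genes most like it were found by the Pearson correlation of log2 CPM, as deviations from the mean of each sort, over the 27 libraries, which share depth and library makeup. This is a description with no test. Dcn was most like Lum (r = 0.895), Scara5 (0.886) and Col1a2 (0.869), and Lum was most like Col3a1 (0.899), Dcn (0.895) and Smoc2 (0.872). Within single sorts, r for Lum and Smoc2 was 0.0416 in S100β-GFP+ cells, 0.940 in PSCs and 0.977 in NG2-dsRed+ cells. Clec3b came closest to Pdgfra (0.879), Dnm1 (0.851) and Vldlr (0.808), and Dpt to B830012L14Rik (0.829), Col14a1 (0.828) and Dclk1 (0.798). Collagen genes thus appear beside Dcn, Lum and Dpt, and the receptor gene Pdgfra beside Clec3b. The leading gene was Htra3 for Mfap5 (0.851), Emilin2 for Pi16 (0.792), Wdr86 for Fbln1 (0.737), Ppic for Cd34 (0.826) and Gaa for Gsn (0.857), with r for Mfap5 and Htra3 at 0.360 within PSCs. Of the 10 genes, Dcn and Lum alone had another of the 10 among their 3, namely each other.

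Promoter sequence from RefSeq (GRCm38.p6) was matched for 5 of the 10 genes, Dpt, Fbln1, Pi16, Cd34 and Gsn, with 8 start sites in all, and windows of 280 bases, from 250 before a start to 30 after it, were searched on both strands. The letters searched were those of the TATA box, TATAAA, of the CCAAT box, of the GC box, GGGCGG, of the site known for AP-1, TGANTCA, and of the site known for TEAD factors, GGAATG. Among 32851 windows of all genes 13.1% held TATAAA, 36.1% CCAAT, 34.7% GGGCGG, 7.46% TGANTCA and 13.9% GGAATG. The windows of Dpt and Pi16 are shown because these genes had the largest differences between the single-positive sorts, with matches in capitals. Dpt, at chr1:164796413-164796692 on the plus strand, had a single match, TATAAA at position 13 counted from 1 at the start site, and Pi16, at chr17:29318632-29318911 on the plus strand, had a single match, CCAAT with its first base 64 bases before the start, which lies inside the gene as GENCODE places it.
Dpt: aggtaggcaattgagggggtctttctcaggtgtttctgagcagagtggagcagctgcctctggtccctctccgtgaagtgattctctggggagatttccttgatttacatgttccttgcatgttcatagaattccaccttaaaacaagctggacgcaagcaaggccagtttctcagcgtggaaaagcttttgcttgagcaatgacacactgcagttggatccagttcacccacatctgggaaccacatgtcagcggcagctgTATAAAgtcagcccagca
Pi16: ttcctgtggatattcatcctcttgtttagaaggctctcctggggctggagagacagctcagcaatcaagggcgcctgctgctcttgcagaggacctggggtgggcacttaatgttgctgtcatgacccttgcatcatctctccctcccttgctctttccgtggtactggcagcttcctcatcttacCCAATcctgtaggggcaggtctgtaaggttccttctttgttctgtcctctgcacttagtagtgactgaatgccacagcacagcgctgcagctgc

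In the other windows GGGCGG was found in 1 of the windows of Fbln1 and in all 3 of Gsn, CCAAT in 2 of Gsn, and none of these motifs in that of Cd34. TGANTCA and GGAATG were in 0 of the 8 windows. A match describes the letters only, and these windows hold no measurement of binding.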

How the data were processed

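Transcript levels were measured by RNA-seq in cells sorted from mouse muscle. The authors used ea-utils and Btrim for trimming, HISAT2 for alignment to GRCm38 and HTSeq for counting, and deposited raw counts per gene. Annotation and strand setting are not stated. Library numbers joined 27 of 36 labelled libraries to columns, and the rest have no counts. Within each sort no pair of libraries was identical. GENCODE M21 gave symbols, positions and exon lengths for 99.72% of identifiers. The fit used R 4.3.3 and edgeR 4.0.16, with TMM, filterByExpr at a minimum count of 10, and the quasi-likelihood test on 3 sorts together, two-sided, with Benjamini-Hochberg adjustment at 0.05. SE is the absolute log2 fold change over the square root of F. For log2 CPM a prior count of 2 was added. Alternatives were the study's DESeq2 Wald test (version 1.42.0), DESeq2 size factors in edgeR, no filter, a filter at mean count 5 in any sort, only the sorts compared, limma-voom (limma 3.58.1) with sample quality weights, a term for the part of a library's counts taken by Lars2, Gm23935 and Gm15564, and fits without S100β-GFP+ libraries 14, 17 and 22, without each library in turn, or, as chosen after seeing the data, without NG2-dsRed+ libraries 28 and 35, and for the marker lists fits without each library were also chosen then. The 10 genes and the marker lists were chosen with earlier results of these data known. Text names the 10 genes, leading and lowest markers of lists and genes most like the 10, and any other list gene named was chosen after its values were seen. The processing was tested on simulated counts. Without molecular identifiers, counts may include PCR copies.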

Additional observations from a re-analysis of the deposited data

Results flagged for a closer look

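In each sort, the log2 CPM of each of the 10 genes was checked for a highest or lowest library that lay far from the rest, by the gap to the next library divided by the whole range (Dixon's 95% limits). Of 30 sets of libraries 3 had one, and chance alone gives about 1 in 20. Mfap5 had 58.3 CPM in PSC library 36, with the next PSC library at 34.2 CPM. Clec3b had 1.13 CPM in NG2-dsRed+ library 2, which rests on 8 counts, with the next library at 8.24 CPM. Pi16 had 2.45 CPM in NG2-dsRed+ library 15, from 14 counts, with the next at 8.01 CPM. What set these libraries apart was not tested.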

How the results depend on the processing

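The number of the 10 genes past the threshold stayed within 1.5 times its value in the report under all 9 other settings and with each library left out: 10 in PSCs against S100β-GFP+ cells, 9 or 10 in PSCs against NG2-dsRed+ cells and 8 or 9 in S100β-GFP+ against NG2-dsRed+ cells. No log2 fold change of the 10 genes changed sign under any of these settings. Of 270 log2 fold changes under the other settings 267 kept their side of the threshold, and of 540 with 1 library left out 531 did. The exceptions were Dcn between the single-positive sorts, which was lost in 9 fits without 1 library (0.67 to 0.80), without S100β-GFP+ libraries 14, 17 and 22 (0.63, adjusted p = 0.177 by edgeR) and with only the compared sorts in the fit (0.83, adjusted p = 0.0535), and Fbln1 in PSCs against NG2-dsRed+ cells, gained with limma-voom (-0.87, adjusted p = 0.021). Over all settings other than single libraries left out, the adjusted p ranged from 0.00052 to 0.177 for Dcn and from 0.021 to 0.461 for Fbln1. The cause was not tested. Counts of called genes in the marker lists moved by more than 1.5 times in 36 of 432 cases under other settings and in 17 of 864 with 1 library left out. Without the filter on low counts 44705 genes were tested, of which 16556 were called between PSCs and S100β-GFP+ cells (7198 with the filter) and 10586 between the single-positive sorts (5099 with it). Mean CPM of the 10 genes on plain library totals differed from those on TMM-scaled sizes by less than 1 SD in 30 of 30 cases. No paired analysis was made, because library numbers are unique to each library and no label ties libraries of different sorts to a mouse. Whether libraries of different sorts came from the same mouse is not known from the labels. Depth limits Pi16 and Clec3b in PSCs, where libraries held as few as 2 and 6 counts.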

Other observations

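Adipoq, the gene of the adipocyte hormone adiponectin, had 1.55 to 42.6 CPM (median 12.1) in S100β-GFP+ cells, with counts in all 8 libraries, while NG2-dsRed+ cells had 7 counts in 10 libraries, 7 of which held 0, and 5 of 9 PSC libraries held 0. Plin1, which encodes a coat protein of lipid droplets, had 0.222 to 19.8 CPM (median 7.73) in S100β-GFP+ cells and at most 0.508 CPM in NG2-dsRed+ cells. Both were called higher in S100β-GFP+ than in NG2-dsRed+ cells by edgeR (adjusted p = 1.3e-06 and 2.1e-06). Without PSC library 34, Adipoq failed the filter on low counts and was not tested. Adipoq and Plin1 each averaged under 1 CPM among NG2-dsRed+ libraries, so how far they differed between these sorts is uncertain. Pparg, the regulator of adipogenesis, did not follow them, at -0.93 (SE 0.42, adjusted p = 0.0868), or -1.14 (adjusted p = 0.0416) without S100β-GFP+ library 22, and with 9.13 to 52.1 CPM (median 30.3) in NG2-dsRed+ cells against 8.88 to 33.4 CPM (median 16.0) in S100β-GFP+ cells.

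Epyc, the gene of epiphycan, a proteoglycan of growth cartilage and a neighbour of Dcn and Lum on chromosome 10, did not pass the filter on low counts. It had 161 counts in PSC library 31 and 0 in the other 8 PSC libraries. The same library had 3859 CPM of the cartilage collagen gene Col2a1, against a median of 1.97 CPM in PSCs, and 49.3 CPM of Lum, within the range of the other PSC libraries.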
